A study of Mus musculus with 28 samples.

Results

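A set of 70 genes was selected as transcripts made by EO771 and barely counted in its host lines, out of 55536 genes in the count tables. EO771 is a mouse breast cancer line. The hosts were C2C12, a mouse muscle line kept here as myotubes, and MLg, a mouse lung fibroblast line. A gene entered the set when its mean was at least 10 CPM (the gene's counts per 1000000 counts of the library) over the 4 libraries of EO771 alone and at most 0.2 CPM in both C2C12 alone and MLg alone. Of the 8513 genes at 10 CPM or more in EO771 alone, these 70 met both host limits. Their high level in EO771 alone and low level in the hosts alone chose them and are given as a description, with no test.

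The 28 libraries formed 7 groups of 4: EO771 with C2C12, EO771 with MLg, EO771 alone, MLg with EO771, MLg alone, C2C12 with EO771 and C2C12 alone. All lines carried the genotype label WT, and all were grown in DMEM with 10% fetal bovine serum. In the co-cultures the cancer cells lay directly on a layer of the host cells, and RNA was sequenced from the cancer and the host side as libraries of their own. The labels do not say how the lines were separated or whether libraries came from separate cultures, so the p-values reflect library-to-library spread only, part or all of which may be technical. Each line is an established cell line rather than tissue of several animals.

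Several classes in the set are best known from certain tissues or stages. Cancer-testis and early-embryo genes, such as the Rhox homeobox genes, Magea10 and Dppa4, are normally kept to germ cells, placenta or the early embryo, and their promoters are commonly methylated elsewhere; tumour lines often express some of them. A further class, such as Vav1, Laptm5 and Pou2f2, is best known from blood cells, and another from epithelia, where mucin-type glycosylation and surface proteases shape the cell's outer coat. A transcript that 1 line makes and another lacks also serves as a tag of the first line's RNA in a mixed sample.

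Total counts ran from 27.6 to 48.3 M (M, 1000000 counts) per library in the EO771 groups, 33.8 to 57.5 M in MLg with EO771, 36.5 to 63.0 M in C2C12 with EO771 and 54.8 to 96.5 M in the hosts alone. Every count was even in 5 libraries (EO771 with C2C12 R3-1, R5-1 and R6-1, and MLg with EO771 R5-1 and R6-1). EO771 with C2C12 R3-1 held the highest value of its group for 39 of the 70 genes, and MLg with EO771 R5-1 did so for 62. Of 15 epithelial markers, 13 were under 1 CPM in EO771 alone, among them Epcam at 0.514 and Cdh1 at 0.0562 CPM, while Krt8 stood at 93.3 CPM. Of 9 leukocyte markers 6 were under 1 CPM there, with Ptprc, Cd3e and Adgre1 at 0 counts, while Cd68 stood at 11.2, Lyz2 at 1.41 and Cd74 at 1.04 CPM. Myotube markers summed to 59.4 to 221 CPM in EO771 with C2C12, against 5.79 to 7.89 CPM in EO771 alone, and all 7 were called higher; Myod1 and Myog were at 0 in EO771 alone. Fibroblast markers summed to 252 to 591 CPM in EO771 with C2C12 and 281 to 463 CPM in EO771 with MLg, against 23.6 to 31.8 CPM in EO771 alone.

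Promoter windows show 2 features of the set: near-identical gene copies, and whether genes that changed with C2C12 share a hypoxia-type motif, since the series title names hypoxia. RefSeq (GRCm38.p6) held a window for 45 of the 70 genes. The 3 Rhox2 copies are given first, as the 250 bases before the start, 5′ to 3′ on the gene's strand. Capitals mark bases aligned to a different base in Rhox2d, and inserted or missing bases are not marked.
Rhox2d (chrX:37493160-37493409, plus strand): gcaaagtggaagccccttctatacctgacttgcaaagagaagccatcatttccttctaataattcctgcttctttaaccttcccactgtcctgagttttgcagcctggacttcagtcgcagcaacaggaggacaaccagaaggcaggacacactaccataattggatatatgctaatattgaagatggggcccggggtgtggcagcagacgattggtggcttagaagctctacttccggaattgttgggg
Rhox2g (chrX:37643471-37643720, minus strand): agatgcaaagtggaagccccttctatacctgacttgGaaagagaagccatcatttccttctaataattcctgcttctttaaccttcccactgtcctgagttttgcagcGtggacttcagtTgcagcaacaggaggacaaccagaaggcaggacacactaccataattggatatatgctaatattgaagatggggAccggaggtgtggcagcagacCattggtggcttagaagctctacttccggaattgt
Rhox2e (chrX:37530218-37530467, plus strand): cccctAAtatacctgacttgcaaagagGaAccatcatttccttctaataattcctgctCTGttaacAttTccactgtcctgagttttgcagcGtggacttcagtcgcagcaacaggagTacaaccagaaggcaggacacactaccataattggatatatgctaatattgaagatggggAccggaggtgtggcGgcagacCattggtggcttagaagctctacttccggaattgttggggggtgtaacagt
Over the aligned bases, Rhox2g matched Rhox2d at 98.0% and Rhox2e matched it at 94.1%. The annotated transcripts of the 3 copies were 94.1% to 97.5% identical to each other, so reads can fit several copies. How the counting treated such reads is not stated in the labels, and the count of each copy is uncertain.

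The next windows belong to 4 of the 5 genes with the largest rises in EO771 with C2C12. Capitals mark ACGTG or GCGTG on either strand, the core letters of hypoxia response elements.
Wfdc2 (chr2:164562465-164562714, plus strand): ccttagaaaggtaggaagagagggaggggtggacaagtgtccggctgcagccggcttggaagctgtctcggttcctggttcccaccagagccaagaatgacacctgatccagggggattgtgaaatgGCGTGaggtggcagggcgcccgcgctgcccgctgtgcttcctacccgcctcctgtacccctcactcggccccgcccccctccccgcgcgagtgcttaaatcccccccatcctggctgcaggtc
B3gnt3 (chr8:71701801-71702050, minus strand): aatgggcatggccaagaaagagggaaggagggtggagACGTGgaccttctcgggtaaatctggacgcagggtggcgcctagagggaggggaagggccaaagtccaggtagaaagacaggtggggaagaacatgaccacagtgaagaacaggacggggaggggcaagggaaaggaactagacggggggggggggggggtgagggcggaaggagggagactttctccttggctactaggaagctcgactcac
Cyth4 (chr15:78596797-78597046, plus strand): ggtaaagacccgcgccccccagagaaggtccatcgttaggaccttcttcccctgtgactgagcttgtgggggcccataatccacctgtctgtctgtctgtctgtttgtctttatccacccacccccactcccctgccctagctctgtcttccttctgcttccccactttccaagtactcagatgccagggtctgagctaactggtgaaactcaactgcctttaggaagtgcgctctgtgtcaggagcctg
Sele (chr1:164047984-164048233, plus strand): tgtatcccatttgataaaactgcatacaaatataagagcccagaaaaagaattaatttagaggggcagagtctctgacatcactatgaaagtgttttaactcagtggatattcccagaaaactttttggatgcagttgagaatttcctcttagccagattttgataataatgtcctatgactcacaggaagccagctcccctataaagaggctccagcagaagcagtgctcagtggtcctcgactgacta
Wfdc2 and B3gnt3 each held 1 match, and the Cyth4 and Sele windows held none. Over all windows of the set 33.3% held ACGTG or GCGTG, against 38.6% of all 32851 windows in the RefSeq table. Of genes with a window, 4 of 14 that rose and 4 of 8 that fell in EO771 with C2C12 had a match. A match is a run of letters in these 250 bases and no sign of a bound factor.

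By annotation (GENCODE M21, GRCm38) 63 of the 70 genes were protein-coding, 3 were processed transcripts, 2 were lincRNAs and 2 were unprocessed pseudogenes. They lay on 17 chromosomes, with 11 on chromosome 2, 9 on X and 7 on chromosome 19. The X held 12.9% of the set, against 2.99% of the genes at 10 CPM or more in EO771 alone. Its genes include Rhox1, Rhox2d, Rhox2e, Rhox2g and Rhox2-ps of the same cluster, so they are not all separate loci. Another annotated gene overlapped 33 of the 70, on the same strand for 10, and without the strand setting of the counting their reads cannot be told apart. Only Crb2, Phox2a, Slc25a21 and Gm15286 overlapped a gene at 10 CPM or more in EO771 alone: Dennd1a, Inppl1, Pax9 and Gm10736 in that order, all on the opposite strand.

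Mean levels in EO771 alone ran from 10.2 CPM (Elovl3) to 277 CPM (Pnma5), with a median of 24.3 CPM, and 6 genes reached 100 CPM. Pnma5, a member of the retroelement-derived paraneoplastic antigen family (chrX:73033981-73037103, minus strand), had 231, 256, 237 and 264 CPM in EO771 with C2C12, 241, 279.8, 279 and 236 CPM in EO771 with MLg and 268, 280.4, 279.6 and 279 CPM in EO771 alone. Within each EO771 group libraries are listed by label, R3-1, R5-1, R5-2 and R6-1 for EO771 with C2C12, R5-1, R6-1, R6-2 and R7-1 for EO771 with MLg, and R3-1, R3-2, R5-1 and R6-2 for EO771 alone. All EO771 with C2C12 libraries lay below all EO771 alone libraries for this gene, but it was not called (log2 fold change -0.24 ± 0.09 SE, adjusted p = 0.054). Per kilobase of annotated exon, the highest levels in EO771 alone were those of the lincRNA AC132253.2 at 179 CPM per kb, Rhox2d at 166.0, Gm364 at 99.5, Pnma5 at 88.6 and Dppa4 at 65.0.

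Genes were sorted by known role into 7 classes after their values had been seen. The germline and early-embryo class held 15 genes at 14.2 to 114 CPM in EO771 alone. It comprised Rhox1, Rhox2d, Rhox2e, Rhox2g and Rhox2-ps of the X-linked reproductive homeobox cluster, the chromatin partners Dppa2 and Dppa4, the DNA methylation cofactor Dnmt3l, the transposon-silencing gene Morc1, the meiotic gene Tex11, the sperm genes Cfap58 and Adam3, the oocyte gene Nlrp4c, the stem cell ubiquitin ligase Trim71 and the cancer-testis gene Magea10. The leukocyte class held 10 genes, from Ly9 at 13.1 CPM to Arhgap30 at 181 CPM. The epithelial surface and secretion class held 8, the developmental and neural class 10, the lipid and retinoid class 3, non-coding RNAs and pseudogenes 6, and the remaining 18 had no shared role.

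Just inside the level limit were Elovl3, Gm15286 and Lipo3 at 10.2, 10.3 and 10.6 CPM in EO771 alone, and just outside were Elfn2, Ddn and Slc22a7 at 9.77, 9.64 and 9.36 CPM. At the host limit Rbp4, Grap and Dppa2 stood inside, with 0.198, 0.190 and 0.187 CPM in C2C12 alone. Just outside were Tex19.1 and Xlr3c, with 0.209 and 0.208 CPM in C2C12 alone, and Sncg with 0.204 CPM in MLg alone. All 70 genes passed the filter on low counts in every fit, although in the EO771 fit the level needed for that is part of the rule. The host fit held no EO771 library, and there the genes passed mainly through the co-cultured hosts, where they were higher than in the hosts alone.

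In EO771 with C2C12, 20 of the 70 genes rose and 18 fell against EO771 alone (edgeR quasi-likelihood test, Benjamini-Hochberg adjusted p under 0.05 over 15794 genes), 54.3% of the set. Over all genes tested, 33.0% were called (18.7% rose and 14.3% fell), and 37.4% of the genes at 10 CPM or more in EO771 alone. The libraries of the groups did not overlap for 20 of the 70 genes in the upward direction and 14 in the downward direction, against 23.5% and 12.9% of all genes tested. The largest rises were those of Slit1, Sele, Wfdc2, Cyth4 and B3gnt3, each by 2.75-fold or more, and the largest falls those of Elovl3, Tacr2, Gm10800, Pou2f2 and Dpp4. The median absolute log2 fold change of the set was 0.42, against 0.32 over all genes tested. All 12 EO771 libraries entered 1 fit; a fit of all 28 libraries called 21 of the set, and leaving out the libraries of even counts, which leaves 1 library of EO771 with C2C12, called 17.

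**Figure D1:**
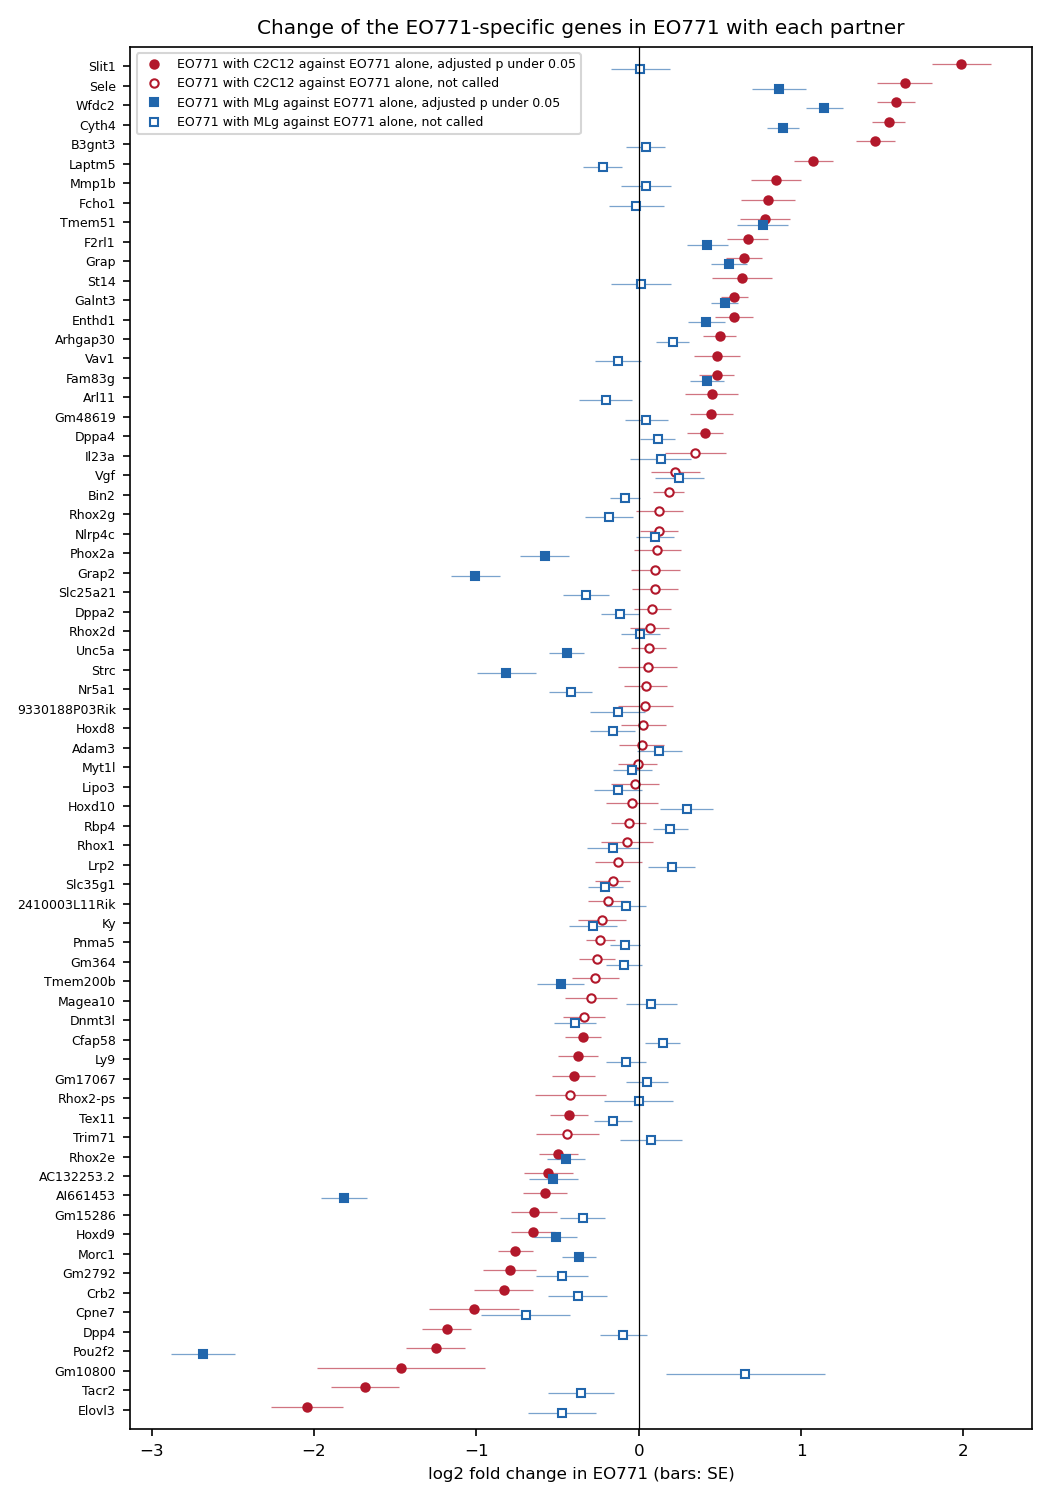
Log2 fold change (x axis, with SE bars) of each of the 70 genes (rows, sorted by the change with C2C12) in EO771 with C2C12 (red circles) and EO771 with MLg (blue squares), each against EO771 alone; filled symbols have an adjusted p under 0.05. Slit1, B3gnt3 and Laptm5 moved up with C2C12 and lay near or below 0 with MLg, while Pou2f2 and AI661453 lay lowest with MLg.

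The epithelial surface and secretion class had 5 rises, 2 falls and 1 gene not called in EO771 with C2C12, with a median log2 fold change of 0.61. Over all genes tested, 18.7% rose and 14.3% fell. The classes are small and were drawn up after the values were seen, so their counts are descriptions. Wfdc2, a secreted protein with whey acidic protein domains, had 116, 77.9, 81.7 and 81.1 CPM in EO771 with C2C12, 56.2, 62.2, 64.0 and 64.6 CPM in EO771 with MLg and 28.2, 27.6, 25.7 and 31.3 CPM in EO771 alone. Its level was lowest in every EO771 alone library and highest in EO771 with C2C12, where R3-1 stood above the other 3 (log2 fold change 1.58 ± 0.12 SE, adjusted p = 1.75e-08). B3gnt3, a glycosyltransferase that extends mucin-type O-glycans (chr8:71690756-71701789, minus strand), had 117, 77.2, 85.9 and 85.4 CPM in EO771 with C2C12, 26.3, 35.8, 31.1 and 36.1 CPM in EO771 with MLg and 32.1, 33.9, 29.2 and 31.2 CPM in EO771 alone. EO771 with C2C12 stood alone above both other groups, which overlapped (log2 fold change 1.46 ± 0.12 SE, adjusted p = 8.74e-08). Galnt3, which starts mucin-type O-glycosylation, rose by 0.59 on the log2 scale, the protease-activated receptor F2rl1 by 0.67, and the surface protease St14 by 0.64. Dpp4, a surface dipeptidase, had 6.82, 12.2, 10.9 and 8.77 CPM in EO771 with C2C12, against 22.1, 22.2, 18.3 and 21.1 CPM in EO771 alone. Its groups did not overlap (log2 fold change -1.18 ± 0.15 SE, adjusted p = 1.02e-05). The polarity protein Crb2 also fell, by 0.83 on the log2 scale, and its reads may include those of Dennd1a on the other strand.

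Of the 10 leukocyte genes, 5 rose, 2 fell and 3 were not called in EO771 with C2C12. The shares over all genes tested were 18.7% rising and 14.3% falling. Cyth4, an exchange factor for ARF GTPases (chr15:78597047-78622019, plus strand), had 178, 146, 150.1 and 151 CPM in EO771 with C2C12, 85.3, 96.0, 91.9 and 101 CPM in EO771 with MLg and 54.6, 59.0, 46.6 and 43.7 CPM in EO771 alone. The 3 groups were fully separated, with EO771 with C2C12 highest (log2 fold change 1.54 ± 0.10 SE, adjusted p = 4.62e-09). Laptm5, a lysosomal membrane protein, had 91.1, 61.3, 72.5 and 62.9 CPM in EO771 with C2C12, 24.3, 30.9, 25.9 and 29.2 CPM in EO771 with MLg and 28.8, 34.4, 34.2 and 32.1 CPM in EO771 alone. EO771 with C2C12 was higher than every other library (log2 fold change 1.07 ± 0.12 SE, adjusted p = 2.50e-06), and EO771 with MLg overlapped EO771 alone. Arhgap30, the adaptor Grap and the Rac exchange factor Vav1 rose by 0.50, 0.65 and 0.48 on the log2 scale. Pou2f2, the B cell transcription factor Oct-2, fell, and so did the lymphocyte receptor Ly9 (log2 fold change -0.38), whose groups overlapped.

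**Figure D2:**
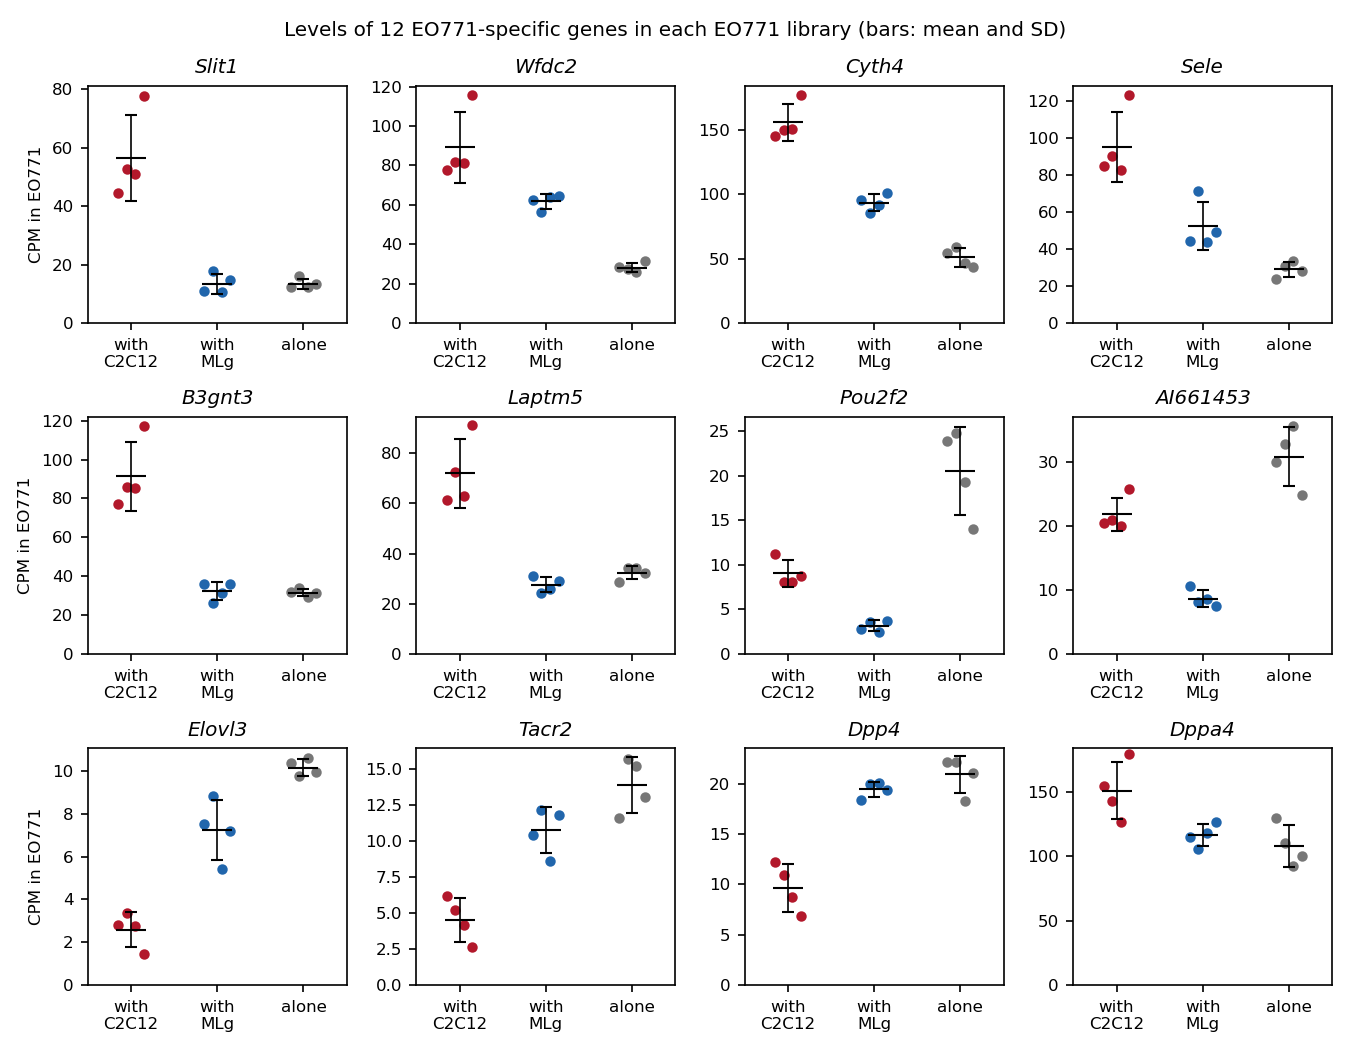
CPM (y axis, linear from 0) of 12 of the genes in each library of EO771 with C2C12, EO771 with MLg and EO771 alone (points), with the mean and SD (bars). Slit1, B3gnt3 and Laptm5 were separated only in EO771 with C2C12, Wfdc2 and Cyth4 formed 3 steps, and Pou2f2 and AI661453 were lowest in EO771 with MLg.

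Germline and early-embryo genes showed 1 rise, 4 falls and 10 genes not called in EO771 with C2C12, with a median log2 fold change of -0.29. Among all genes tested 18.7% rose and 14.3% fell. Dppa4, which acts with Dppa2 on chromatin in pluripotent cells (chr16:48283733-48294237, plus strand), had 179.7, 154, 143 and 126 CPM in EO771 with C2C12, against 129, 110.3, 92.2 and 100.4 CPM in EO771 alone. It was called (log2 fold change 0.41 ± 0.11 SE, adjusted p = 0.00775), although the lowest co-cultured library lay below the highest library of EO771 alone. Its neighbour Dppa2 averaged 22.0 ± 1.15 CPM in EO771 with C2C12 and 19.7 ± 0.911 CPM in EO771 alone (SD, n = 4 each) and was not called, although its groups did not overlap. Morc1, Rhox2e, Tex11 and Cfap58 fell by 0.76, 0.49, 0.43 and 0.34 on the log2 scale. Rhox2d, the most abundant Rhox gene of the set (chrX:37493428-37497623, plus strand), had 148, 122, 116 and 116 CPM in EO771 with C2C12, 90.0, 130.0, 134 and 101 CPM in EO771 with MLg and 121, 108, 102 and 123 CPM in EO771 alone. The groups overlapped, and neither comparison with EO771 alone was called (adjusted p = 0.709 with C2C12 and 0.979 with MLg). Rhox2g, Rhox1 and Rhox2-ps were not called either, with log2 fold changes of 0.13, -0.07 and -0.42 with C2C12. Rhox2e is 1 of the near-identical copies printed above. Its log2 fold change was -0.57 with the 1 library of EO771 with C2C12 that holds odd counts (adjusted p = 0.111, with the spread taken from the other groups).

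Among the developmental and neural genes 1 rose, 2 fell and 7 were not called (18.7% of all genes tested rose and 14.3% fell). Slit1, an axon guidance ligand (chr19:41600257-41743665, minus strand), had 77.8, 44.6, 52.6 and 50.9 CPM in EO771 with C2C12, 17.6, 10.9, 10.6 and 14.8 CPM in EO771 with MLg and 12.5, 15.9, 12.2 and 13.4 CPM in EO771 alone. EO771 with C2C12 was 3.97-fold above EO771 alone (log2 fold change 1.99 ± 0.18 SE, adjusted p = 2.99e-07), and EO771 with MLg overlapped EO771 alone. Tacr2, the receptor of the tachykinin neurokinin A, had 2.62, 6.16, 5.18 and 4.14 CPM in EO771 with C2C12, against 11.6, 15.7, 15.2 and 13.1 CPM in EO771 alone. The groups did not overlap (log2 fold change -1.69 ± 0.21 SE, adjusted p = 8.70e-06). Hoxd9 fell as well (log2 fold change -0.65 ± 0.13 SE, adjusted p = 0.00102), while its neighbours Hoxd8 and Hoxd10 were not called (log2 fold changes 0.03 and -0.04). In the list of 39 HOX genes, which contains these 3, 21 were tested. With C2C12, 1 rose (Hoxa7, with means of 0.190 CPM in EO771 with C2C12 and 0.0411 CPM in EO771 alone) and 1 fell (Hoxd9). With MLg, Hoxa7, Hoxb8, Hoxb9 and Hoxc8 rose and Hoxd9 fell; Hoxb9 had a mean of 2.15 CPM in EO771 with MLg, 0.0285 CPM in EO771 alone and 118 CPM in MLg alone.

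The largest fall was that of Elovl3, an elongase of long fatty acids (chr19:46131897-46135694, plus strand), which had 1.46, 2.78, 3.37 and 2.76 CPM in EO771 with C2C12, 8.85, 7.53, 5.42 and 7.18 CPM in EO771 with MLg and 10.4, 9.75, 10.6 and 9.94 CPM in EO771 alone. Every EO771 with C2C12 library lay below every other EO771 library (log2 fold change -2.05 ± 0.22 SE, adjusted p = 1.72e-06). The other 2 genes of the lipid and retinoid class, the retinol carrier Rbp4 and the lipase family gene Lipo3, were not called. Sele encodes E-selectin, best known as an adhesion molecule of activated endothelium (chr1:164048234-164057677, plus strand), and had 123, 85.0, 90.0 and 82.6 CPM in EO771 with C2C12, 71.2, 44.5, 43.6 and 49.3 CPM in EO771 with MLg and 23.8, 30.8, 33.3 and 28.0 CPM in EO771 alone. The 3 groups were fully separated (log2 fold change 1.64 ± 0.17 SE, adjusted p = 1.03e-06). Mmp1b, related to interstitial collagenase, and the endocytic protein Fcho1 rose by 0.85 and 0.80 on the log2 scale. Gm10800, which lies in a satellite-like repeat region where reads cannot be placed with certainty (chr2:98666547-98667301, minus strand), had 3.79, 7.59, 12.1 and 7.18 CPM in EO771 with C2C12, 21.9, 8.59, 11.4 and 85.8 CPM in EO771 with MLg and 25.8, 20.9, 17.4 and 16.3 CPM in EO771 alone. EO771 with MLg R7-1 stood far above the rest. The call with C2C12 (log2 fold change -1.46 ± 0.51 SE, adjusted p = 0.0355) ended on leaving out any 1 of 6 libraries, EO771 alone R3-1, R3-2 or R5-1 or EO771 with C2C12 R3-1, R5-1 or R6-1 (adjusted p 0.0508 to 0.11).

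Summed over the set, C2C12 alone held 0.0916% of the level in EO771 with C2C12, and MLg alone held 0.0939% of the level in EO771 with MLg. Whether host cells made these transcripts in co-culture was not tested, and in bulk RNA fewer cells of a type and less RNA per cell cannot be told apart. The marker sum of myotubes given above was higher in EO771 with C2C12 and that of fibroblasts in both co-cultures, and their part in the changes of these genes was not tested.

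In EO771 with MLg, 9 of the 70 genes rose and 11 fell against EO771 alone, 28.6% of the set, where 9.59% of all genes tested were called (5.99% rose and 3.60% fell), and 8.28% of the genes at 10 CPM or more. The groups did not overlap for 9 genes upward and 14 downward, against 7.06% and 7.32% of all genes tested. The median log2 fold change was -0.08, against 0.01 for all genes. Leaving out EO771 alone R6-2 brought the count to 13 (8 rises and 5 falls), and the fit of all 28 libraries to 7. The largest rises were those of Wfdc2, Cyth4, Sele, Tmem51 and Grap, and the largest falls those of Pou2f2, AI661453, Grap2, Strc and Phox2a.

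Pou2f2 changed most (chr7:25087344-25179726, minus strand), with 8.79, 11.2, 8.04 and 8.08 CPM in EO771 with C2C12, 3.64, 2.85, 2.42 and 3.73 CPM in EO771 with MLg and 23.9, 24.8, 19.3 and 14.0 CPM in EO771 alone. All 3 groups were separated, lowest with MLg (log2 fold change -2.68 ± 0.20 SE, adjusted p = 2.23e-08) and intermediate with C2C12 (log2 fold change -1.25 ± 0.18 SE, adjusted p = 4.35e-05). AI661453, a protein-coding gene with no role given here (chr17:47436615-47470638, plus strand), had 25.7, 20.4, 21.0 and 20.0 CPM in EO771 with C2C12, 8.07, 10.6, 8.55 and 7.45 CPM in EO771 with MLg and 30.0, 32.8, 35.6 and 24.8 CPM in EO771 alone. EO771 with MLg lay below every other library (log2 fold change -1.81 ± 0.14 SE, adjusted p = 5.54e-08). Grap2, an adaptor of T cell receptor signalling, had 33.9, 31.2, 23.0 and 22.9 CPM in EO771 with C2C12, 9.12, 15.4, 12.8 and 11.0 CPM in EO771 with MLg and 24.5, 26.1, 25.5 and 21.9 CPM in EO771 alone. It fell with MLg (log2 fold change -1.01 ± 0.15 SE, adjusted p = 1.35e-04) and was not called with C2C12 (adjusted p = 0.638).

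Wfdc2, Cyth4 and Sele rose with MLg by 1.14 ± 0.11, 0.89 ± 0.10 and 0.87 ± 0.17 on the log2 scale (SE), from the libraries listed above. By class, the 10 leukocyte genes had 2 rises and 2 falls, and the 8 epithelial surface genes 3 rises and no fall. The 10 developmental genes had 3 falls and the 15 germline genes 2 falls. With MLg, 5.99% of all genes tested rose and 3.60% fell. Strc, which encodes the inner ear protein stereocilin, averaged 6.58 ± 1.55 CPM in EO771 with MLg and 11.6 ± 1.19 CPM in EO771 alone (SD, n = 4 each; log2 fold change -0.82 ± 0.18 SE, adjusted p = 0.00581). The netrin receptor Unc5a fell by 0.44. The autonomic neuron factor Phox2a fell by 0.58, a call that ended without EO771 alone R3-2 or R6-2 or without EO771 with MLg R6-1 or R6-2 (adjusted p 0.0509 to 0.06), and its reads may include those of Inppl1. Hoxd9 fell by 0.51 with MLg, and the call ended without EO771 alone R5-1 (adjusted p = 0.0942) or EO771 with MLg R6-2 (0.0544). Rhox2e fell by 0.45, and the call ended without EO771 alone R3-1 or R6-2 or EO771 with MLg R7-1 (adjusted p 0.0504 to 0.0903).

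Of the 70 genes, 9 rose with both partners, 6 fell with both, 27 were called with neither and 0 were called in opposite directions. The same counts were not made over all genes tested, so whether they are particular to the set was not tested. Both comparisons use the same EO771 alone libraries, which also set the level limit, so the shared directions are no independent support. The 9 were Wfdc2, Cyth4, Sele, Tmem51, Grap, Galnt3, F2rl1, Enthd1 and Fam83g, and the 6 were Pou2f2, AI661453, AC132253.2, Hoxd9, Morc1 and Rhox2e.

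The direct comparison of EO771 with C2C12 against EO771 with MLg sets 2 groups against each other that the rule did not use. It called 22 of the 70 genes higher and 7 lower in EO771 with C2C12, 41.4% of the set, where 27.7% of all genes tested were called (15.0% higher and 12.7% lower), and 30.4% of those at 10 CPM or more. Without EO771 with MLg R6-2 the counts were 19 higher and 11 lower, and without EO771 with MLg R7-1 they were 18 higher and 11 lower. The groups did not overlap for 21 genes upward and 4 downward, against 19.2% and 7.74% of all genes tested. The higher ones were led by Slit1 (log2 fold change 1.98 ± 0.18 SE, adjusted p = 4.72e-07), Pou2f2 (log2 fold change 1.43 ± 0.19 SE, adjusted p = 3.07e-05), B3gnt3 (log2 fold change 1.42 ± 0.12 SE, adjusted p = 1.98e-07), Laptm5 (log2 fold change 1.30 ± 0.12 SE, adjusted p = 5.21e-07) and AI661453 (log2 fold change 1.24 ± 0.14 SE, adjusted p = 4.75e-06). For Slit1, B3gnt3 and Laptm5 this came with a rise with C2C12, and for Pou2f2 and AI661453 with a deeper fall with MLg. Of the leukocyte class, 7 were higher with C2C12 than with MLg, none was lower and 3 were not called, with a median log2 difference of 0.45 against -0.01 for all genes tested. Of the 15 germline genes none was higher, 2 were lower (Cfap58 and Morc1) and 13 were not called. The genes lower with C2C12 were led by the repeat-region gene Gm10800, whose groups overlapped (log2 fold change -2.12 ± 0.52 SE, adjusted p = 0.00557), Elovl3 (log2 fold change -1.57 ± 0.22 SE, adjusted p = 4.80e-05), Tacr2 (log2 fold change -1.33 ± 0.21 SE, adjusted p = 1.49e-04) and Dpp4 (log2 fold change -1.09 ± 0.15 SE, adjusted p = 3.99e-05). The difference of Gm10800, a gene taken up after its values were seen, was -0.98 without EO771 with MLg R7-1 (adjusted p = 0.0362). Leaving out the libraries of even counts, which leaves 1 library of EO771 with C2C12, left 10 genes called, 7 higher and 3 lower; a call can be lost there through the fewer libraries alone.

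In the host libraries the set was near 0 in the lines alone, by the rule, and present in both co-cultured hosts. Summed over the 70 genes, MLg with EO771 held 224 ± 79.0 CPM, against 2.46 ± 0.570 CPM in MLg alone, and C2C12 with EO771 held 145 ± 34.3 CPM, against 2.86 ± 0.650 CPM in C2C12 alone (SD, n = 4 each). The sums in the matching cancer libraries were 3120 ± 205 CPM in EO771 with C2C12 and 2621 ± 93.1 CPM in EO771 with MLg, beside 2570 ± 76.9 CPM in EO771 alone. As a percent of the mean of the matching co-cultured EO771 group, the set stood at 8.56% ± 3.01 in MLg with EO771, with 12.8% in R5-1, 6.23% in R6-1, 6.65% in R6-2 and 8.53% in R7-1. In C2C12 with EO771 it stood at 4.65% ± 1.10, with 3.47% in R3-1, 5.29% in R5-1, 4.01% in R5-2 and 5.84% in R6-1. With the group mean as divisor, the lowest MLg library was just above the highest C2C12 library, both labelled R6-1. That order did not hold with the EO771 library of the same label as divisor. Those sums were 2709 CPM in EO771 with MLg R6-1 and 2944 CPM in EO771 with C2C12 R6-1. The summed CPM themselves overlapped, at 336, 163, 174 and 224 CPM in MLg with EO771 R5-1, R6-1, R6-2 and R7-1, against 108, 165, 125 and 182 CPM in C2C12 with EO771 R3-1, R5-1, R5-2 and R6-1. Without MLg R5-1 the MLg mean was 7.14%. On library totals scaled by TMM over all 28 libraries the means were 8.61% for MLg and 5.42% for C2C12.

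**Figure D3:**
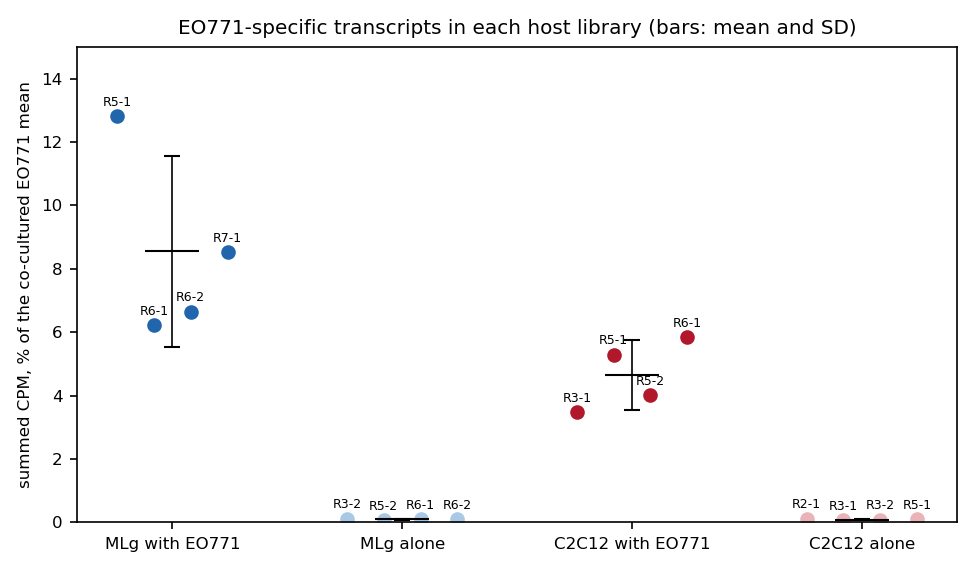
Summed CPM of the 70 genes in each host library (points, labelled by replicate) as a percent of the mean sum in the matching co-cultured EO771 group (y axis, linear from 0), with the mean and SD (bars). Co-cultured MLg lay between 6.23% and 12.8%, co-cultured C2C12 between 3.47% and 5.84%, and the lines alone at means of 0.0939% (MLg) and 0.0916% (C2C12).

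In MLg with EO771, 69 of the 70 genes had counts in every library, the exception being Phox2a with 0 counts in R6-2, and means ran from 0.438 CPM (Pou2f2) to 22.9 CPM (Pnma5). All 70 had counts in each library of C2C12 with EO771, at means of 0.208 CPM (Lipo3) to 12.8 CPM (Arhgap30). Means reached 1 CPM for 54 genes in MLg with EO771 and 34 in C2C12 with EO771. In the lines alone, 26 genes had 0 counts in all MLg libraries and 27 in all C2C12 libraries. A count of 0 over a group allows up to 0.0112 CPM in MLg alone and 0.0103 CPM in C2C12 alone (3 counts over the 4 libraries), for counting error only. Against the host alone, 68 of the 70 were called higher in MLg with EO771 (7.16% of all genes tested were called, with 5.35% higher) and 66 in C2C12 with EO771 (4.40%, with 3.98% higher), counts that the host limit of the rule makes and that are given as a description.

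Levels in the hosts followed levels in EO771 gene by gene, more tightly in MLg. Over the 70 genes the log2 mean CPM in MLg with EO771 and in EO771 with MLg had Pearson's r = 0.986 and a Spearman rank correlation of 0.980. In C2C12 with EO771 and EO771 with C2C12, r was 0.896 and the rank correlation 0.867. Points of a panel share their libraries and each gene's length, so these are descriptions. The set stood lower in C2C12, where some genes had few counts. Some also had a level in C2C12 alone, such as Dppa2 at 0.187 CPM, against 0.486 CPM in C2C12 with EO771. The part of either in the wider scatter of C2C12 was not tested. The percent of the EO771 level had a median of 8.38% in MLg (quartiles 7.80% and 9.62%, range 6.00% to 13.9%, coefficient of variation 15.2% over genes). In C2C12 the median was 4.42% (quartiles 3.26% and 5.82%, range 1.58% to 14.5%, coefficient of variation 49.5%). The percent was higher in MLg for 66 of the 70 genes, the exceptions being Cpne7, Gm10800, Lrp2 and Tacr2.

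**Figure D4:**
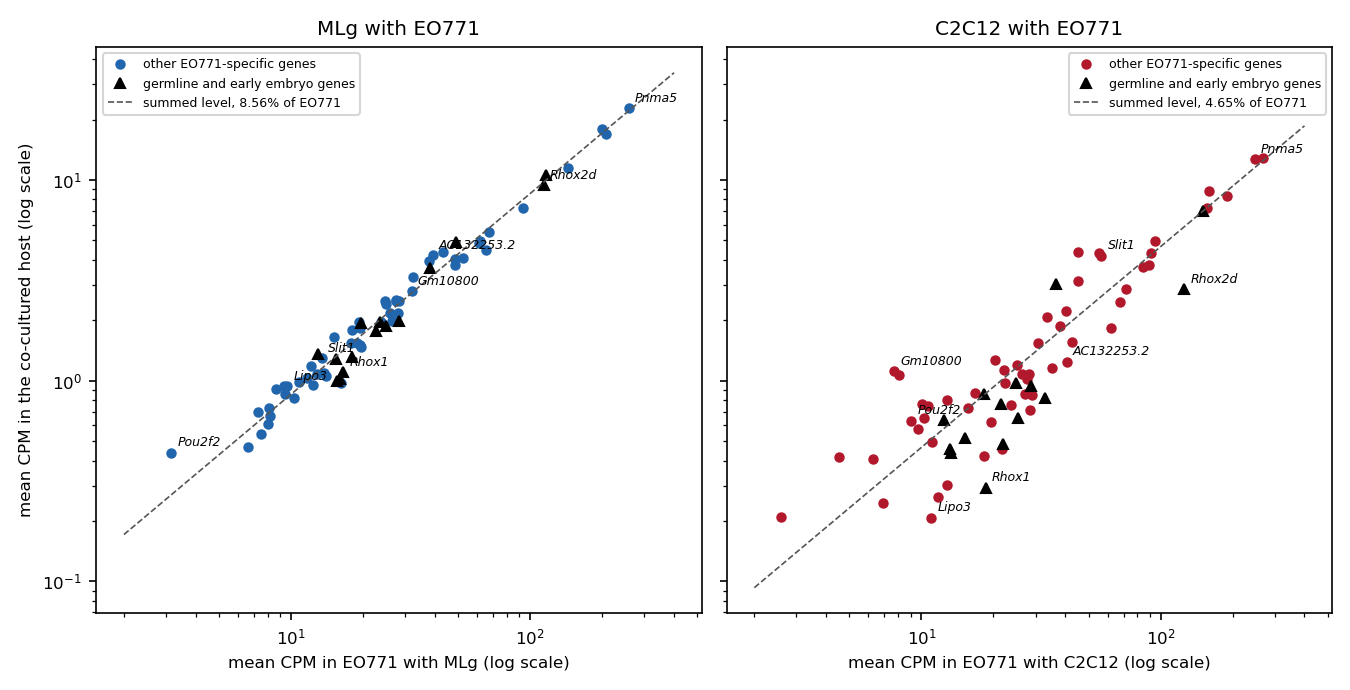
Mean CPM in MLg with EO771 (left) and C2C12 with EO771 (right) against mean CPM in the matching co-cultured EO771 (both axes log scale), 1 point per gene, triangles for the 15 germline and early-embryo genes; the dashed line marks the summed level of the set, 8.56% of EO771 in MLg and 4.65% in C2C12. Points lie close to the line in MLg and scatter about it in C2C12.

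Pnma5 had 36.3, 16.9, 17.5 and 20.9 CPM in MLg with EO771, against 0.258, 0.0604, 0.130 and 0.162 CPM in MLg alone. It had 7.82, 14.7, 11.4 and 17.0 CPM in C2C12 with EO771 and 0 counts in each library of C2C12 alone. Libraries are again listed by label, R5-1, R6-1, R6-2 and R7-1 for MLg with EO771, R3-2, R5-2, R6-1 and R6-2 for MLg alone, and R3-1, R5-1, R5-2 and R6-1 for C2C12 with EO771. Laptm5, with 0 counts in all 8 libraries of the host lines alone, had 3.55, 2.33, 2.03 and 2.19 CPM in MLg with EO771, against 2.69, 2.30, 2.16 and 4.26 CPM in C2C12 with EO771. For Laptm5 the co-cultured hosts overlapped, and for Pnma5 the lowest MLg library lay just below the highest C2C12 library.

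Rhox1, a reproductive homeobox gene (chrX:37213804-37222258, minus strand), also had 0 counts in all 8, and stood at 1.78, 1.15, 0.468 and 1.02 CPM in MLg with EO771, against 0.322, 0.274, 0.349 and 0.226 CPM in C2C12 with EO771. The hosts did not overlap. Its 1.57% of the EO771 level was the lowest percent in C2C12, next to Lipo3 at 1.89%, AI661453 at 2.10%, Dppa2 at 2.21% and Hoxd10 at 2.24%. These percents rest on few counts per library of C2C12 with EO771, such as 14, 10, 22 and 10 for Rhox1 and 10, 4, 4 and 19 for Lipo3. Among genes at 10 CPM or more in EO771 with C2C12, the highest percents there were those of the lncRNA gene 9330188P03Rik at 9.68%, Trim71 at 8.30%, the endocytic receptor Lrp2 at 7.80%, Tmem200b at 7.67% and Slit1 at 7.44%. By class the median percent in C2C12 ran from 3.42% for the germline genes to 5.53% for the epithelial surface genes, and in MLg from 7.95% for the developmental genes to 9.67% for the lipid and retinoid genes. In MLg the lowest percents were those of Hoxd9 at 6.00%, Magea10 at 6.30%, Rhox2-ps at 6.43%, Rhox1 at 6.69% and Lrp2 at 6.81%. The highest among genes at 10 CPM or more in EO771 with MLg were Mmp1b at 10.9%, AC132253.2 at 10.8%, 9330188P03Rik at 10.5%, Rhox2e at 10.4% and B3gnt3 at 10.2%.

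Between the co-cultured hosts, 18 of the 70 genes were called higher and 1 lower in MLg with EO771 than in C2C12 with EO771, 27.1% of the set, where 55.0% of all 18647 genes tested were called (26.7% higher and 28.3% lower). The groups did not overlap for 18 genes upward and 1 downward, against 26.1% and 21.9% of all genes tested. The median log2 fold change was 0.73 for the set and 0.01 for all genes. The count was 7 without MLg with EO771 R5-1, 11 without R7-1, 10 without C2C12 with EO771 R5-2, 11 without R3-1 and 1 without the libraries of even counts, which leaves 2 libraries of MLg with EO771. Of the 15 germline and early-embryo genes 5 were higher (Cfap58, Nlrp4c, Rhox1, Rhox2d and Rhox2e), with a median log2 fold change of 1.20. Rhox2d and Rhox2e are near-identical copies. The lipid and retinoid class had 2 of 3 higher (median 1.62) and the non-coding class 3 of 6 (median 1.06). In the leukocyte, epithelial surface and developmental classes 2 of 10, 1 of 8 and 1 of 10 were higher, and 4 of the 18 genes of no shared role. Rhox2d had 18.2, 6.57, 3.69 and 9.28 CPM in MLg with EO771, against 2.46, 3.95, 1.72 and 3.32 CPM in C2C12 with EO771. MLg R5-1 was highest, and the lowest MLg library lay just below the highest C2C12 library (log2 fold change 1.62 ± 0.45 SE, adjusted p = 0.00678).

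Slit1 was the gene called lower, with 1.54, 0.869, 1.43 and 1.33 CPM in MLg with EO771, against 3.72, 4.94, 2.95 and 5.19 CPM in C2C12 with EO771 (log2 fold change -1.79 ± 0.55 SE, adjusted p = 0.0104). The groups did not overlap, and without the libraries of even counts the log2 fold change was -1.69 (adjusted p = 0.0847, with 2 libraries of MLg with EO771 left). In EO771 Slit1 was likewise lower with MLg, at 13.5 ± 3.37 CPM in EO771 with MLg and 56.5 ± 14.6 CPM in EO771 with C2C12 (SD, n = 4 each). Cfap58, a gene of the sperm flagellum, had 7.58, 2.29, 1.43 and 3.19 CPM in MLg with EO771, against 0.736, 1.10, 0.715 and 1.20 CPM in C2C12 with EO771 (log2 fold change 1.85 ± 0.48 SE, adjusted p = 0.00686). All MLg libraries were above all C2C12 libraries, with R5-1 highest. Rhox1, given above, was 3.48-fold higher (log2 fold change 1.80 ± 0.46 SE, adjusted p = 0.0063). Lipo3, Hoxd10 and AC132253.2 were also among the 5 largest differences, at 2.07, 1.91 and 1.66 on the log2 scale. Each of these 3 calls ended without MLg with EO771 R5-1 (adjusted p = 0.0737, 0.056 and 0.0696). That of Lipo3 also ended without C2C12 with EO771 R5-1 (0.0539) or R5-2 (0.0515), and that of Hoxd10 without C2C12 with EO771 R3-1 (0.0516) or MLg with EO771 R7-1 (0.0518). Of the 12 genes with a log2 fold change below 0, the other 11 were not called, down to -0.89 for Strc and -0.64 for Pou2f2. Without MLg with EO771 R5-1, Strc was called lower too (adjusted p = 0.0461).

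**Figure D5:**
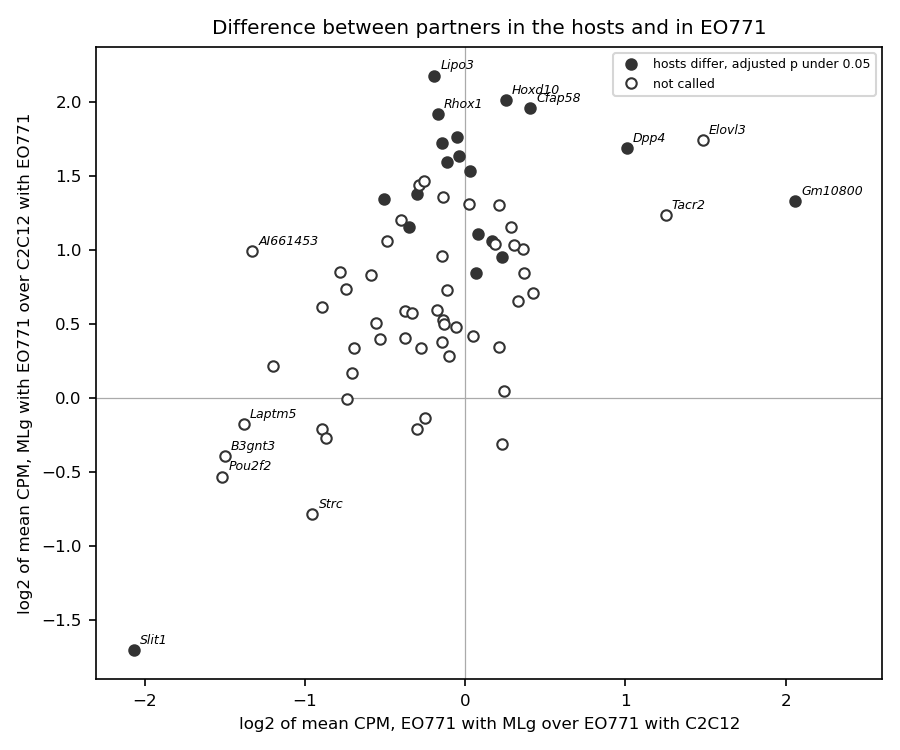
Log2 ratio of mean CPM in MLg with EO771 over C2C12 with EO771 (y axis) against the log2 ratio in EO771 with MLg over EO771 with C2C12 (x axis), 1 point per gene; filled points differ between the hosts at an adjusted p under 0.05. Slit1 is lowest on both axes, and most genes lie above 0 on the y axis.

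The partner difference in the hosts was set beside that in EO771 for the same genes. Over the 70 genes the log2 ratio of MLg with EO771 over C2C12 with EO771 and that of EO771 with MLg over EO771 with C2C12 had r = 0.577 and a rank correlation of 0.484, as a description over genes that share these 16 libraries. Of the 22 genes called higher in EO771 with C2C12 than in EO771 with MLg, 8 had a ratio below 0 between the hosts and 14 a ratio above 0. Slit1, Pou2f2, B3gnt3 and Laptm5 were among the 8, at -1.70, -0.53, -0.39 and -0.18 on the log2 scale. AI661453, Grap2, Phox2a, Arl11 and Mmp1b were among the 14, at 0.99, 0.22, 0.85, 0.74 and 0.62. All 7 genes called lower in EO771 with C2C12, led by Gm10800, Elovl3, Tacr2 and Dpp4, had host ratios above 1 on the log2 scale. Most of the set lay on that side, as 58 of the 70 genes had a log2 fold change above 0 between the hosts in edgeR. The 8 against 14 and the 7 are to be read beside that share.

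Other genes were read from lists that contain none or few of the 70. Of 12 genes listed as germline and placental, 6 were tested and none fell. With C2C12, 3 rose (Xlr3a by 0.63 on the log2 scale, and Ceacam1 and Psg17, at means of 1.23 and 0.777 CPM in EO771 with C2C12). With MLg, 1 rose (Plac1, at 0.501 CPM in EO771 with MLg). Over all genes tested 18.7% and 5.99% rose. Rhox5, the most abundant gene of this list, averaged 512 CPM in EO771 with C2C12, 437 CPM in EO771 with MLg and 439 CPM in EO771 alone, and was not called. It misses the set because its level was 2.67 CPM in MLg alone and 2.88 CPM in C2C12 alone. Its mean in the co-cultured hosts was 8.92% of the EO771 level in MLg and 3.18% in C2C12. Dazl, Ddx4, Magea4, Mageb1, Rhox6 and Tex101 were at means of 0.0348 CPM or less in every EO771 group. Of 9 leukocyte markers, none of which is in the set, 4 were tested, none rose and 1 fell with C2C12 (Cd68 by 0.75), and none was called with MLg. Of 15 epithelial markers 6 were tested, with 2 rises and 2 falls with C2C12 and no rise and 1 fall with MLg. Of 13 basal and squamous markers 3 were tested, and 2 rose with each partner. Of 7 hormone receptor and luminal factor genes 5 were tested, with 1 rise and 1 fall with C2C12 and 1 rise with MLg. Of 4 endothelial markers, given because Sele is an endothelial gene, 3 were tested, with 1 rise and 1 fall with C2C12 and no call with MLg. Of 11 interferon response genes, 9 rose with C2C12 and 9 with MLg, where 18.7% and 5.99% of all genes tested rose. This list summed to 62.4 to 108 CPM in EO771 with C2C12 and 71.2 to 89.6 CPM in EO771 with MLg, against 30.7 to 44.3 CPM in EO771 alone, and to 576 to 1030.0 CPM in MLg with EO771 and 483 to 679 CPM in C2C12 with EO771. The part of host RNA in those rises was not tested.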

How the data were processed

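RNA was extracted with RNeasy and libraries were made with TruSeq Stranded mRNA, per the labels' protocols. The authors deposited raw counts per Ensembl gene for each library, and every other value here was computed from those counts. The submitters' processing notes list STAR 2.7.10a, Subread 2.0.1, featureCounts, DESeq2 and fastp without saying what each did. The labels and notes name no genome build, annotation or strand setting. Gene names and coordinates came from GENCODE M21 (GRCm38), which holds every gene ID of the tables; promoter windows came from RefSeq (GRCm38.p6). Where the file names of 2 EO771 with C2C12 libraries (R5-1 and R5-2) disagreed with their samples, the sample record was followed.

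CPM is a count divided by the library total, times 1000000. Tests used edgeR 4.0.16 in R 4.3.3 (quasi-likelihood F test, TMM scaling, filterByExpr with a minimum count of 10 and a minimum total of 15, Benjamini-Hochberg adjustment over all genes kept). The 12 EO771 libraries were fitted together, and so were the 16 host libraries. The procedure was tested on simulated counts. Alternatives were DESeq2 1.42.0, other scalings, filters and sets of libraries, limits of the selection, and each library left out.

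Genes named were those of highest level in EO771 alone, the 5 largest called changes each way without overlap, the 5 highest and lowest host percents, the 5 largest host differences each way, those nearest the limits, families of 3 or more, and marker lists (epithelial, basal and squamous, hormone receptor and luminal, leukocyte, myotube, fibroblast, endothelial, germline and placental, HOX, interferon response). Further genes of each class were named after their values were seen. The 70 genes, the lists and the classes were chosen with earlier results of these data known. Depth was 27.6 to 96.5 M counts per library, but counting error is not small for every gene in the co-cultured hosts. There a gene of the set had as few as 2 counts in a library of C2C12 with EO771 and 0 in a library of MLg with EO771. Floors cover counting error only.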

Additional observations from a re-analysis of the deposited data

Results flagged for a closer look

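In 7 of 112 groups of 4 examined, 1 library stood far from the other 3, where chance gives about 1 in 20. Wfdc2 had 115.8 CPM in EO771 with C2C12 R3-1 (others 77.9 to 81.7), and 6.993 CPM in C2C12 with EO771 R5-1 (others 2.61 to 2.87). In EO771 with C2C12 R3-1, Cyth4 had 177.7 CPM (others 145.8 to 150.8) and Rhox2d had 147.7 CPM (others 116.4 to 121.5). Pnma5 had 267.7 CPM in EO771 alone R3-1 (others 278.8 to 280.4). Hoxd9 had 18.1 CPM in EO771 with MLg R6-1 (others 15.5 to 15.8). Galnt3 had 127.7 CPM in EO771 with MLg R5-1 (others 148.3 to 150.1).

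The effects of C2C12 and of MLg on EO771 differed for the 9 genes listed here, as tested directly between both co-cultures in edgeR. These are the largest called differences whose groups did not overlap, up to 5 each way. They are not the only named genes called in that test. Others were Grap2 (log2 difference 1.11, adjusted p = 3.79e-05), Cyth4 (0.65, adjusted p = 9.70e-05) and, lower in EO771 with C2C12, Morc1 (-0.39, adjusted p = 0.0109). Among the 9, the log2 difference was 1.976 for Slit1, 1.432 for Pou2f2, 1.416 for B3gnt3, 1.296 for Laptm5 and 1.24 for AI661453, all higher in EO771 with C2C12. It was -1.574 for Elovl3, -1.331 for Tacr2, -1.089 for Dpp4 and -0.4928 for Cfap58, all lower in EO771 with C2C12. The largest adjusted p among the 9 was that of Cfap58 (0.00258).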

How the results depend on the processing

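Of 672 refits over 44 gene comparisons, 627 kept direction and side of the threshold, 44 lost the call, 1 gained it and 0 reversed. The count for EO771 with C2C12 against EO771 alone (38) was 21 with all 28 libraries fitted together, 17 without the libraries of even counts and 31 to 38 with 1 library left out. That for EO771 with MLg against EO771 alone (20) was 7 with all 28 libraries and 13 to 18 with 1 library left out. That for EO771 with C2C12 against EO771 with MLg (29) was 10 without the libraries of even counts and 24 to 30 with 1 left out. That for MLg with EO771 against C2C12 with EO771 (19) was 1 without the libraries of even counts and 7 to 21 with 1 left out. Leaving out the libraries of even counts was chosen after seeing the data, and it leaves fewer libraries; for the other settings the cause was not tested. The number of genes selected (70) was 123 at a minimum of 5 CPM in EO771 alone and 41 at 20 CPM, and 68 to 72 with 1 library left out. The summed percent was 7.14% to 9.33% in MLg and 4.26% to 5.05% in C2C12 with 1 library left out. Within these comparisons, deviations of same-numbered libraries correlated at -0.030 to 0.169. Each value rests on few libraries, and cancer libraries were not set against host libraries, so this cannot show whether the R numbers pair libraries. With the R number as a replicate block the 4 counts were 43, 16, 34 and 13, in the same order. The 34 were 18 higher and 16 lower in EO771 with C2C12 than in EO771 with MLg, where 22 were higher and 7 lower without the block, and 25 were called in both fits. The hosts alone held 54.8 to 96.5 M counts per library, and the few counts of the set there follow from the host limit of the selection.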
